A study of Mus musculus with 6 samples.

Results

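The genes described here are 50 mouse genes of cell division, taken by symbol: 25 that act in S phase or at its entry and 25 that act in mitosis or at its entry. A gene was measured where a probe set (a group of short probes against one transcript) named that gene and no other, and 49 of the 50 were, out of 19938 genes named in this way. Ccnb1, which encodes cyclin B1, had no probe set naming it alone and was not analysed here, so that the mitosis genes number 24 below. The RNA came from MS5, a line of stromal cells from mouse bone marrow that serves as a feeder layer for leukaemic blasts, grown here alone for 7 days with 1 µM PD184352, an inhibitor of the kinases MEK1 and MEK2 (MEKi), or with the diluent DMSO. There were 3 independent experiments, each with 1 MEKi and 1 diluent culture and 1 Affymetrix mouse Gene 1.0 ST array per culture, which gives 3 arrays per condition and 6 in all. Both conditions were the same line in the same serum-containing medium. Values are log2 intensities after RMA normalization (a difference of 1 is a doubling), and array medians ran from 6.29 to 6.38. The label of the cells matched their markers in part: of 11 stromal genes, all were measured, with Cxcl12 between 11.79 and 12.50 and Pdgfrb between 11.71 and 12.19, whereas Lepr stayed between 4.04 and 4.25, and of the leukocyte genes Ptprc lay between 4.71 and 5.06 but Cd68 between 8.96 and 11.41.

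In dividing cells, mitogens act through the ERK cascade and D-type cyclins to release E2F transcription factors from the retinoblastoma proteins, and E2F then drives the genes that license replication origins, open the DNA helix and supply nucleotides. The genes of G2 and mitosis follow later in the cycle, when MYB and FOXM1 proteins bound to the MuvB core switch on promoters that carry a short element called the CHR, usually beside CCAAT boxes bound by NF-Y. Transcripts of both groups are low in resting cells, so that their level in a culture is widely read as a sign of how many cells are cycling.

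These promoter elements were looked for in the genes described here, because they were not used to choose them. RefSeq windows of 300 bases (250 before the start of the gene to 50 after it, build GRCm38.p6) were found for 39 of the 49 genes, as 41 windows. The letters TTTGAA (CHR), CCAAT, and any of TTTGGCGC, TTTCCCGC, TTTGCCGC and TTTCGCGC (E2F) were searched on both strands. Windows of mitosis genes held the CHR letters in 13 of 18 cases (72.2%) and windows of S phase genes in 4 of 23 (17.4%), where 17.9% of all 32851 windows did. CCAAT stood in 16 of 18 mitosis windows (88.9%) and 17 of 23 S phase windows (73.9%), against 37.4% of all windows. The E2F letters stood in 1 mitosis window (5.56%), that of Cdk1, and in 10 S phase windows (43.5%), against 2.26% of all windows. A match is a run of letters and not a shown binding site. The windows printed next are those of genes to which the results return: the mitotic kinase Plk1 and the spindle motor Kif11, which are among the genes that differed most between experiments and hold CHR and CCAAT letters; the licensing factor Cdt1, which differed most of all and holds E2F letters; and Rrm2 and Cdk2, which went opposite ways between experiments. Capitals mark the matches to the letters above on either strand, and the start of the gene is position 1.
Plk1, chr7:122159185-122159484, + strand: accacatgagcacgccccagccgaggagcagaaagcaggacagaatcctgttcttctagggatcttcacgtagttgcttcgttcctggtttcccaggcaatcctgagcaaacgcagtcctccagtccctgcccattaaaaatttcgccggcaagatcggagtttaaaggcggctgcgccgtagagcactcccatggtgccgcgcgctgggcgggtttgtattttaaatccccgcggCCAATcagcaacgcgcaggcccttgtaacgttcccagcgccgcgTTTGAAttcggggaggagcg
Kif11, chr19:37376132-37376431, + strand: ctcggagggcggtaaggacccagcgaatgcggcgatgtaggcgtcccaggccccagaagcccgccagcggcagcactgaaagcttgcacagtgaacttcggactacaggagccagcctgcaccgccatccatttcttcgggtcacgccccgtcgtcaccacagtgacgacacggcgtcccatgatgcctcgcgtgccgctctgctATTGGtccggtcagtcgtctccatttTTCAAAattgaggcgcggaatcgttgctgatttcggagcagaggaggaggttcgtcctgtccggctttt
Cdt1, chr8:122567765-122568064, + strand: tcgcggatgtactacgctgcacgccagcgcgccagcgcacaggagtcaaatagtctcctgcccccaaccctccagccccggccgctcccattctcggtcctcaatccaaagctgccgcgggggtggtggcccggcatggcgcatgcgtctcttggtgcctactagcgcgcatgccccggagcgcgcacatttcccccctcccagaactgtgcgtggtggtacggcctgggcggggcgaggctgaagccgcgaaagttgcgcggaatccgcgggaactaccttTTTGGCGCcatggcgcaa
Rrm2, chr12:24708004-24708303, + strand: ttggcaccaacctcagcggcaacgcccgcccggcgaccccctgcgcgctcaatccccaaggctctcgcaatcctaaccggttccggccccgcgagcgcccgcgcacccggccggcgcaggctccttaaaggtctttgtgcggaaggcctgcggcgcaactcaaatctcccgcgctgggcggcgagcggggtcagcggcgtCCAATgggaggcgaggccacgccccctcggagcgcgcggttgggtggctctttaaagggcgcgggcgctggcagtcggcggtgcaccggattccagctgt
Cdk2, chr10:128705002-128705301, − strand: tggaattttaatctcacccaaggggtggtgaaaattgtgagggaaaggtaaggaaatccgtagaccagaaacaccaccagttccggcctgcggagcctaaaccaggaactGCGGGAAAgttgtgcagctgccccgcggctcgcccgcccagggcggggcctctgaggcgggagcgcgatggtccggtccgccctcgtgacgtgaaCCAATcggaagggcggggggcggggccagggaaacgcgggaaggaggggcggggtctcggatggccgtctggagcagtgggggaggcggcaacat
The CHR letters began at position 31 in Plk1 and at −19 in Kif11, and the CCAAT letters at −14 in Plk1, −45 in Kif11, −50 in Rrm2 and −45 in Cdk2. The E2F letters began at position 33 in Cdt1 and at −140 in Cdk2.

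MEKi was first compared with diluent over the 3 experiments. None of the 49 genes was higher and none was lower at an adjusted p under 0.05 (limma with the experiment as a block, Benjamini-Hochberg adjustment over 28853 probe sets), a share to be read beside 0.104% of all probe sets higher and 0.0555% lower. At an unadjusted p under 0.05, 1 gene passed, Cdt1, where 9.89% of all probe sets did. An analysis of variance after the study's methods, with no block, was read here at an unadjusted p up to 0.05 and at least 1.5-fold (0.585 in log2). The paper prints its p limit as 0.05% and also crossed the results of its 3 experiments, which was not done here. At the 1.5-fold limit the analysis of variance could call none of the 49 genes, whatever their p, because no log2 fold change reached it. The log2 fold changes of the 49 genes ran from −0.35 (Cdt1) to 0.23 (Ccne1), with a median of 0.040 where all probe sets had 0.037. Of the 49, 35 were above 0 and 14 below, where 18470 of 28853 probe sets were above and 10383 below. S phase genes split into 14 above and 11 below 0 around a median of 0.032, and mitosis genes into 21 above and 3 below around a median of 0.087. After a further quantile normalization the medians were −0.0029 for the 49 genes, −0.019 for S phase genes and 0.043 for mitosis genes, so that the sign of the S phase median depended on the scaling of the arrays. It also depended on experiment 3, without which that median was −0.062, and without experiment 2 the medians of the 49 genes and of the mitosis genes were 0.11 and 0.14. The precision allowed a bound: the 95% interval of each of the 49 genes lay within 1.5-fold of no change, and that of 34 within 0.32 on the log2 scale, where 96.8% and 68.1% of all probe sets did.

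**Figure D1:**
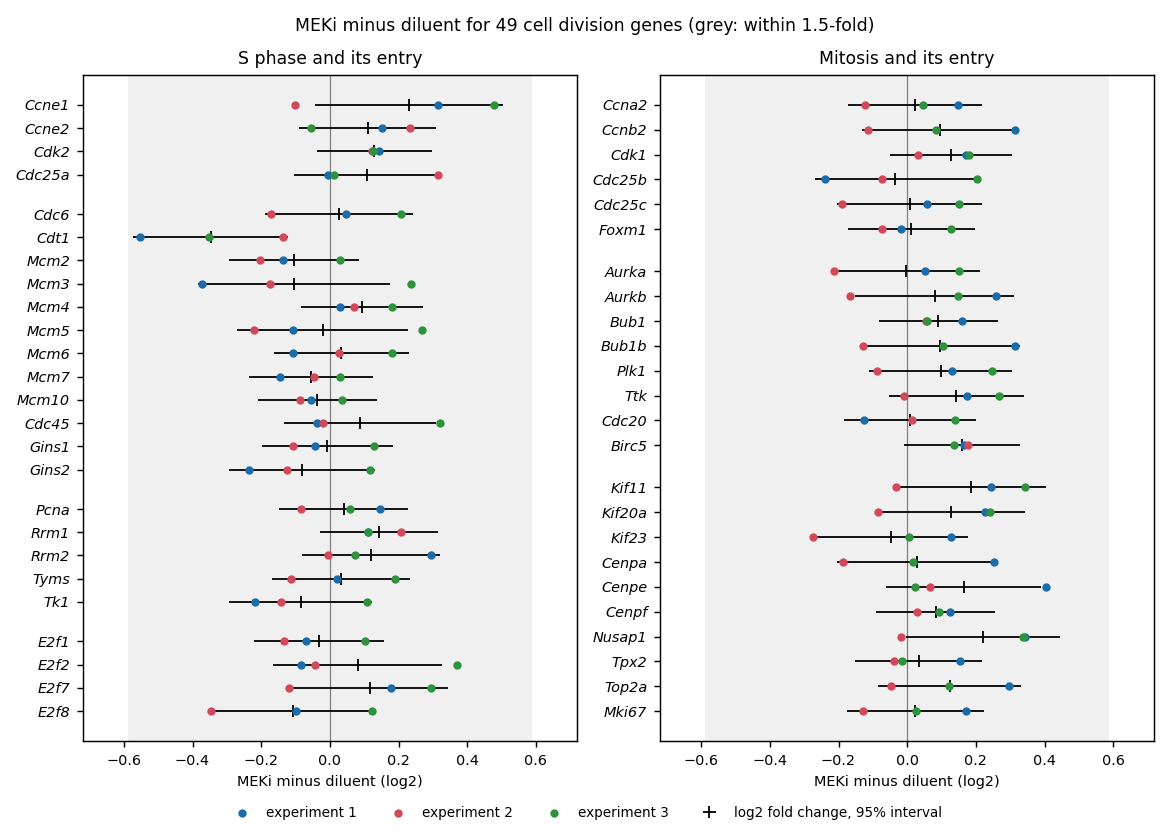
MEKi minus diluent for each gene (log2, x axis), with 1 point per experiment and a black bar for the log2 fold change over 3 experiments with its 95% interval from limma; genes run down the page by role. All bars lie inside the grey band of 1.5-fold, and the red points of experiment 2 lie left of the others for most genes.

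At the entry to S phase, cyclin E and its kinase CDK2 phosphorylate the retinoblastoma proteins and fire replication origins. Ccne1, the gene of cyclin E1, read 9.30, 8.94 and 9.19 in the MEKi cultures of experiments 1, 2 and 3, against 8.98, 9.04 and 8.72 in the diluent cultures. MEKi was thus higher in experiments 1 and 3 and lower in experiment 2, and its log2 fold change of 0.23 (SE 0.12, adjusted p = 0.58 from limma), the highest of the 49, did not pass. Cdk2 read 9.22, 9.41 and 9.48 with MEKi, against 9.08, 9.28 and 9.36 with diluent. Its 3 differences, 0.14, 0.12 and 0.13, were the most alike of this group, and its log2 fold change was 0.13 (SE 0.072, adjusted p = 0.61). Both conditions were lowest in experiment 1 and highest in experiment 3, and the MEKi and diluent arrays of Cdk2 overlapped. Ccne2 (cyclin E2) and Cdc25a, the phosphatase that activates CDK2, had log2 fold changes of 0.11 each.

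Origin licensing loads the MCM helicase onto DNA in G1, with CDC6 and CDT1 as loaders, and CDC45 and the GINS complex turn it into the active helicase. Cdt1 was the gene nearest to a call. It read 8.96, 7.98 and 8.0 in the MEKi cultures of experiments 1, 2 and 3, against 9.52, 8.11 and 8.36 in the diluent cultures. MEKi was the lower array of each pair, with differences of −0.55, −0.14 and −0.35, while the 2 arrays of experiment 1 stood above the other 4 whatever the condition. Its log2 fold change was −0.35 (SE 0.096, 95% interval −0.57 to −0.12, unadjusted p = 0.00819, adjusted p = 0.319 in limma), and Cdt1 was the single gene of the 49 lower with MEKi in all 3 experiments, where 7.98% of all probe sets were.

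The helicase subunits themselves showed no direction common to the 3 experiments. Of the 12 licensing and helicase genes, 2 were higher with MEKi in experiment 1, 2 in experiment 2 and 11 in experiment 3. The shares of all probe sets higher were 49.1%, 75% and 53.5%. Mcm3 had the widest spread of differences of all 49 genes: it read 8.18, 7.64 and 7.99 with MEKi, against 8.55, 7.81 and 7.75 with diluent, which puts MEKi lower in experiments 1 and 2 and higher in experiment 3. Mcm10, a factor that helps the helicase start, was the steadiest of the licensing genes, at 7.37, 6.94 and 7.11 with MEKi, against 7.43, 7.03 and 7.07 with diluent, and its log2 fold change was −0.036 (SE 0.074). Mcm4 was higher with MEKi in each experiment, by 0.030, 0.071 and 0.18. The other licensing and helicase genes, Cdc6, Mcm2, Mcm5, Mcm6, Mcm7, Cdc45, Gins1 and Gins2, had log2 fold changes between −0.10 (Mcm2) and 0.088 (Cdc45), with adjusted p-values of at least 0.729 in limma.

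The genes of the replication clamp and of nucleotide supply likewise did not pass. Rrm1 encodes the large subunit of ribonucleotide reductase, the enzyme that makes deoxyribonucleotides, and was higher with MEKi in each experiment, at 10.57, 10.41 and 9.98 with MEKi, against 10.46, 10.21 and 9.87 with diluent. Its log2 fold change of 0.14 (SE 0.073, adjusted p = 0.584 in limma) was the largest of this group and did not pass, and the arrays of both conditions overlapped. Tk1, the salvage enzyme thymidine kinase, read 8.65, 7.90 and 8.18 with MEKi, against 8.86, 8.04 and 8.08 with diluent, and so changed sign in experiment 3. A second Tk1 probe set with nearly the same mean gave a log2 fold change of 0.073 where the one used gave −0.085, so that the sign of Tk1 depends on the probe set. Rrm2, the regulated subunit of the reductase, Tyms (thymidylate synthase) and Pcna, the sliding clamp of the polymerases, had log2 fold changes of 0.12, 0.032 and 0.040. Pcna also had 2 probe sets, with log2 fold changes of 0.040 and 0.022. Whether the probes of Tk1 or of Pcna also see a copy of the gene was not tested.

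Of the E2F factors, E2f1 and E2f2 are activators and E2f7 and E2f8 repressors that are themselves E2F targets. E2f7 had the largest log2 fold change of the 4, 0.12 (SE 0.097), from 8.53, 7.64 and 7.95 with MEKi and 8.36, 7.76 and 7.65 with diluent. E2f8 read 7.69, 6.76 and 7.02 with MEKi, against 7.79, 7.11 and 6.90 with diluent, and was lower with MEKi in experiments 1 and 2 and higher in experiment 3. E2f1 was nearly level, at 8.79, 8.79 and 9.06 with MEKi, against 8.86, 8.92 and 8.95 with diluent. E2f2 differed by −0.083, −0.044 and 0.37 in the 3 experiments.

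Among the genes of mitotic entry, Cdk1, the kinase that starts mitosis, was higher with MEKi in all 3 experiments. It read 10.13, 9.49 and 9.47 with MEKi, against 9.96, 9.46 and 9.29 with diluent, and its log2 fold change was 0.13 (SE 0.076, adjusted p = 0.644 in limma). Cdc25b, a phosphatase that removes the brake from CDK1, was the most scattered of this group, at 8.24, 8.29 and 8.68 with MEKi, against 8.48, 8.36 and 8.48 with diluent. Its differences of −0.24, −0.072 and 0.20 spanned both signs. The cyclins Ccna2 and Ccnb2, the phosphatase Cdc25c and the transcription factor Foxm1 had log2 fold changes of 0.023, 0.095, 0.0072 and 0.012.

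The mitotic kinases and checkpoint proteins were close to level as well. Birc5 encodes survivin, which guides Aurora B to the centromere, and it was higher with MEKi by 0.17, 0.18 and 0.14. Its arrays read 6.99, 6.46 and 6.42 with MEKi, against 6.82, 6.28 and 6.29 with diluent. The log2 fold change of 0.16 (SE 0.072, 95% interval −0.010 to 0.33, adjusted p = 0.538 in limma) was the largest of the group. Bub1b, a kinase-like protein of the spindle checkpoint, was the least steady, with 7.92, 7.08 and 7.07 with MEKi, against 7.61, 7.20 and 6.97 with diluent. Bub1, its partner kinase, was higher with MEKi in each experiment, by 0.16, 0.056 and 0.058. Aurka and Aurkb (the Aurora kinases), Plk1, the checkpoint kinase Ttk and the anaphase activator Cdc20 had log2 fold changes from −0.0033 (Aurka) to 0.14 (Ttk).

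Genes of the spindle, the centromere and the chromosomes had the highest median of the mitosis roles, 0.10. Nusap1, a microtubule-bundling spindle protein, had the largest log2 fold change of the mitosis genes, 0.22 (SE 0.095, adjusted p = 0.513 in limma), with 8.07, 7.12 and 7.16 in MEKi cultures and 7.72, 7.14 and 6.82 in diluent cultures. Kif11, the motor that separates the spindle poles, followed with 0.18 (SE 0.093). In both genes MEKi was higher in experiments 1 and 3 and slightly lower in experiment 2.

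Cenpf and Cenpe, which link kinetochores to microtubules, were higher with MEKi in each experiment. Cenpf read 7.52, 6.78 and 6.65 with MEKi, against 7.40, 6.75 and 6.56 with diluent. For Cenpe the differences were 0.41, 0.067 and 0.021, so that its log2 fold change of 0.16 came mainly from experiment 1. Cenpa, the histone variant that marks the centromere, spread most, at 8.69, 7.71 and 7.55 with MEKi, against 8.44, 7.90 and 7.54 with diluent. The proliferation marker Mki67 (the Ki-67 protein of the chromosome surface) averaged 8.93 ± 0.54 with MEKi and 8.91 ± 0.44 with diluent (SD, n = 3 each), with a log2 fold change of 0.023 (95% interval −0.18 to 0.22). Top2a, the topoisomerase that untangles sister chromosomes, Tpx2, a spindle assembly factor, and the motors Kif20a and Kif23 had log2 fold changes of 0.12, 0.034, 0.13 and −0.046. A second Top2a probe set, with a mean level of only 3.09, gave 0.040.

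Counted over all 49, Cdk2, Mcm4, Rrm1, Cdk1, Bub1, Birc5, Cenpe and Cenpf were higher with MEKi in all 3 experiments. That is 8 of 49 genes, where 23.8% of all probe sets were. In none of the 49 did the 3 MEKi arrays all lie above, or all lie below, the 3 diluent arrays, which 5.69% and 2.17% of all probe sets did. Most of the 49 could not show such a separation. Both arrays of experiment 1, 1 of each condition, stood above the other 4 in 40 genes and below them in 2. Of all probe sets 10.2% and 20.1% did so. In those genes, Cdk2 and Rrm1 included, the overlap of the conditions was fixed by experiment 1 and says nothing on MEKi.

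Each experiment was then taken alone, with 1 array per condition and therefore without a test. In experiment 1 the groups parted: 21 of 24 mitosis genes were higher with MEKi, with a median of 0.17, whereas 10 of 25 S phase genes were, with a median of −0.044, and 49.1% of all probe sets were higher. In experiment 2 most genes of both groups were lower with MEKi. There 12 of the 49 were higher (6 S phase and 6 mitosis genes), with medians of −0.10 and −0.073, although 75% of all probe sets were higher on that MEKi array. In experiment 3 the direction turned: 46 of 49 were higher with MEKi, with medians of 0.12 for S phase and 0.13 for mitosis genes, where 53.5% of all probe sets were. Cdt1, Ccne2 and Tpx2 were the 3 exceptions. The median of all probe sets was −0.0030, 0.10 and 0.014 in experiments 1, 2 and 3. After quantile normalization, 32, 5 and 40 of the 49 genes were higher in experiments 1, 2 and 3, with medians of 0.13, −0.20 and 0.085.

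**Figure D2:**
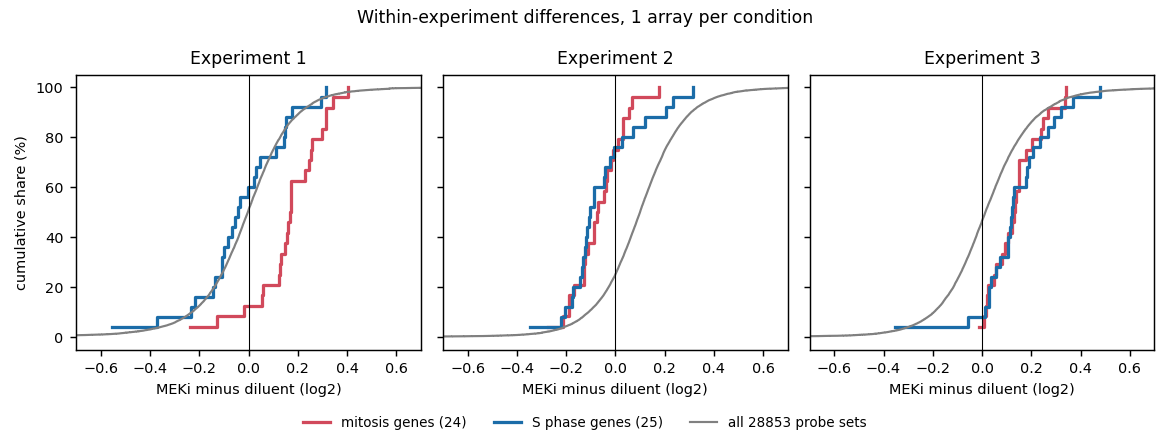
Share of genes (y axis, cumulative, %) with a MEKi minus diluent difference (x axis, log2) at or below each value, in each experiment, for 24 mitosis genes, 25 S phase genes and all 28853 probe sets. Over most of its course the mitosis curve alone lies right of the grey curve in experiment 1, while both coloured curves lie left of it in experiment 2 and right of it in experiment 3.

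The sizes stayed small in each. No gene reached 1.5-fold in experiment 1, 2 or 3, where 0.509%, 0.929% and 1.02% of all probe sets were at least that much higher with MEKi and 1.09%, 0.374% and 0.537% that much lower. At a limit of 0.32 on the log2 scale, 4, 1 and 5 genes of the 49 differed in experiments 1, 2 and 3, where 8.78%, 10.3% and 8.7% of all probe sets did. Whether the effect of MEKi differed between experiments could not be tested, since a single array stood for each condition in each.

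Much larger differences lay between experiment 1 and each of experiments 2 and 3. Over both conditions, 33 of 49 genes were lower in experiment 2 than in experiment 1 and none was higher (adjusted p under 0.05, limma), with a median of −0.60, whereas 3.42% of all probe sets were lower and 4.39% higher around a median of 0.063. In experiment 3 against experiment 1, 33 genes were again lower and none higher, with a median of −0.63, beside 3.77% of all probe sets lower and 3.37% higher. Both comparisons share the arrays of experiment 1. Each experiment holds 1 array per condition, so the spread behind these p-values is that of the MEKi minus diluent differences. It does not measure how far repeat cultures within an experiment would differ. Between experiments 3 and 2, 0 genes passed in limma (5 at an unadjusted p under 0.05, beside 12.4% of all probe sets), where 0.149% of all probe sets were higher and 0.101% lower. The median absolute difference of the 49 genes was 0.60 between experiments 2 and 1 and 0.63 between 3 and 1. Between experiments 3 and 2 it was 0.10, and between MEKi and diluent 0.088. For all probe sets these values were, in the same order, 0.13, 0.11, 0.095 and 0.075. In cultures measured in bulk, fewer cycling cells and less of these transcripts per cell cannot be told apart, and the experiment cannot be told apart from the handling of its cultures. In the sample names, both arrays of experiment 1 carry the tag J7 where the others carry 2 or 3, and the labels do not say what that tag stands for.

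**Figure D3:**
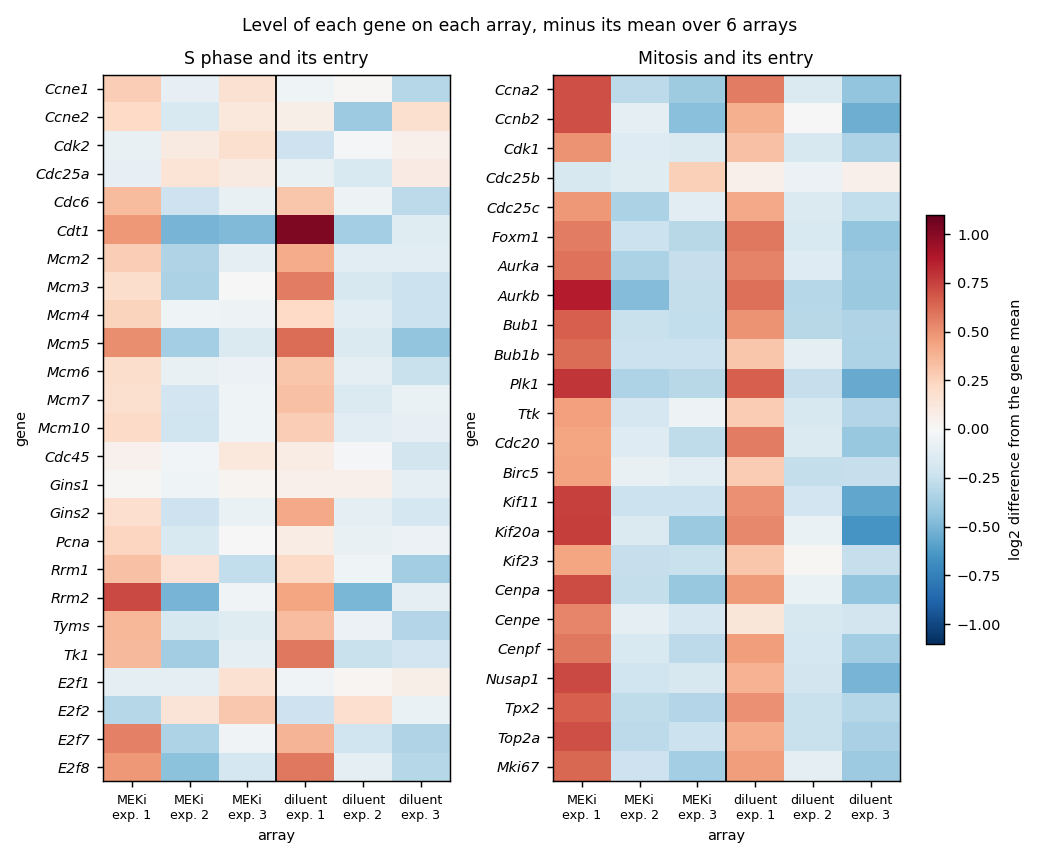
Level of each gene on each array minus its mean over the 6 arrays (colour scale, log2), for 25 S phase genes and 24 mitosis genes; the 3 MEKi arrays stand left of the 3 diluent arrays. The columns of experiment 1 lie above the mean in both conditions for 43 genes, as in 20.2% of all probe sets, and the columns of experiments 2 and 3 are mostly blue.

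The differences from experiment 1 had the larger medians among mitosis genes. Of these, 21 of 24 were lower in experiment 2 (median −0.74) and 23 of 24 in experiment 3 (median −0.88), compared with 12 (median −0.43) and 10 (median −0.41) of 25 S phase genes. The gap between both groups of genes was not itself tested. By role, the calls in experiment 2 and in experiment 3 covered 8 and 8 of 8 mitotic kinase and checkpoint genes, 8 and 10 of 10 spindle and chromosome genes, and 5 and 5 of 6 genes of mitotic entry. They covered 7 and 4 of 12 licensing and helicase genes, 3 and 4 of 5 clamp and nucleotide genes, 2 and 2 of 4 E2F genes, and 0 and 0 of 4 G1/S genes. In 40 of 49 genes (17 S phase and 23 mitosis genes) both arrays of experiment 1 stood above the other 4, against 10.2% of all probe sets.

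Plk1, the kinase that drives mitotic entry and exit and whose window held both CHR and CCAAT letters, read 8.44 to 8.74 on the 4 arrays of experiments 2 and 3, against 9.78 with MEKi and 9.65 with diluent in experiment 1. Its log2 difference was −1.02 (SE 0.11, adjusted p = 0.00267 in limma) in experiment 2 and −1.15 (adjusted p = 0.00149) in experiment 3 against experiment 1. Aurkb, the Aurora kinase of the centromere, read 8.38 to 8.60 in experiments 2 and 3, against 9.72 and 9.46 in experiment 1, with log2 differences of −1.13 (adjusted p = 0.00271) and −1.07 (adjusted p = 0.00345). For both, the arrays of experiment 1 stood apart from the rest by more than any MEKi pair differed. Kif11 read 7.66 to 8.01 in experiments 2 and 3, against 8.99 with MEKi and 8.74 with diluent in experiment 1, with differences of −0.85 and −1.03. In Kif20a, a motor of cytokinesis, Ccna2, the cyclin of S phase and G2, Kif11 and Cenpa, experiment 1 stood 0.97, 0.96, 0.94 and 0.89 above the mean of experiments 2 and 3. Mki67 differed from experiment 1 by −0.71 (adjusted p = 0.0103 in limma) in experiment 2 and by −0.93 (adjusted p = 0.00335) in experiment 3. Top2a differed by −0.82 and −0.86, whereas its second, dim probe set gave 0.37 and 0.15.

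Among S phase genes the widest gap was that of Cdt1, the widest of all 49, at 7.98 to 8.36 in experiments 2 and 3, against 8.96 with MEKi and 9.52 with diluent in experiment 1. Experiment 2 differed from experiment 1 by −1.20 (SE 0.12, adjusted p = 0.00185 in limma) and experiment 3 by −1.06 (adjusted p = 0.00326), while the 2 conditions of Cdt1 differed by −0.35. Rrm2 read 9.22 with MEKi and 9.23 with diluent in experiment 2 and 9.70 and 9.62 in experiment 3, against 10.46 and 10.17 in experiment 1. Its 3 experiments thus formed 3 levels, the lowest in experiment 2, with differences of −1.09 and −0.65 from experiment 1. Rrm1 ran otherwise, with −0.21 (adjusted p = 0.216) in experiment 2 and −0.59 (adjusted p = 0.012) in experiment 3. For Tk1 the differences were −0.78 and −0.63 in the probe set used and −1.12 and −0.98 in its second probe set.

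All 4 G1/S genes were among the 9 genes that did not follow. Cdk2 and E2f2 were the 2 genes with both arrays of experiment 1 below the other 4, where 20.1% of all probe sets were. Cdk2 was 0.19 higher in experiment 2 and 0.27 higher in experiment 3 than in experiment 1, and E2f2 0.43 and 0.38 higher, none of them past the threshold (adjusted p of at least 0.0898 in limma). In Ccne1, Ccne2, Cdc25a, Cdc45, Gins1, E2f1 and Cdc25b the arrays of experiment 1 overlapped the others. Cdc25b was the single mitosis gene among them. E2f1, the activator whose targets include many of the S phase genes, read 8.79 to 9.06 in experiments 2 and 3, against 8.79 and 8.86 in experiment 1.

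**Figure D4:**
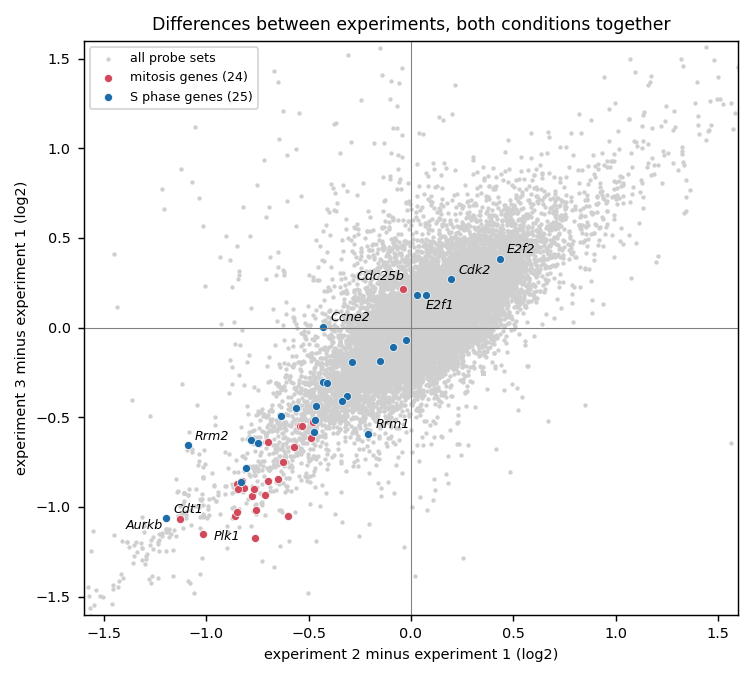
Difference between experiments 2 and 1 (x axis, log2) and between experiments 3 and 1 (y axis, log2), each over both conditions, for all probe sets, 24 mitosis genes and 25 S phase genes; both axes share the arrays of experiment 1, and 241 probe sets lie outside the plotted range. Mitosis genes other than Cdc25b lie at the lower left, and Cdk2 and E2f2 lie at the upper right.

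The gap was present in each condition taken alone. Among MEKi cultures, 45 of 49 genes were lower in experiment 2 than in experiment 1 (median −0.65) and 42 in experiment 3 (median −0.59), where 27.9% and 42.6% of all probe sets were. Among diluent cultures, 44 were lower in experiment 2 (median −0.53) and 44 in experiment 3 (median −0.67), where 47.4% and 46.3% of all probe sets were. These are single arrays and were not tested. The highest of the 6 arrays was the MEKi array of experiment 1 in 30 genes and the diluent array of experiment 1 in 12. It was MEKi 1 in 21 mitosis genes and diluent 1 in 2, but MEKi 1 in 9 S phase genes and diluent 1 in 10. Which array was highest was not counted over all probe sets, so how unusual these counts are is not known.

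Markers of other cells were set beside this difference. Of 6 leukocyte genes 5 were measured, and their median level per array ran from 4.99 to 5.16. Ptprc, Cd3e, Itgam and Adgre1 lay between 4.12 and 6.15 on the 6 arrays. Cd68, a lysosomal protein of macrophages, was far higher, at 9.69, 8.96 and 10.67 in the MEKi cultures of experiments 1, 2 and 3, against 10.62, 9.10 and 11.41 in the diluent cultures. It was lower with MEKi in each experiment without passing (adjusted p = 0.249 in limma), and between experiments it moved otherwise than the cell division genes: against experiment 1 its log2 difference was −1.13 in experiment 2 (adjusted p = 0.0133 in limma) and 0.88 in experiment 3 (adjusted p = 0.0298). Of 11 stromal genes, Angpt1 was higher in experiment 2 by 0.46 (adjusted p = 0.0282), and the list had medians of 0.10 and −0.12 in experiments 2 and 3. The 3 endothelial and 3 epithelial genes gave no call, and 0 of 3 erythroid genes were measured.

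Other genes of the cell cycle, outside the 50, were read in 10 lists holding 231 measured genes. With MEKi 1 of the 231 passed in limma, and it was lower, as were 0.0555% of all probe sets: Ccnd1, which encodes cyclin D1, the cyclin through which mitogen signals reach the retinoblastoma proteins. Ccnd1 read 8.71, 8.23 and 7.73 with MEKi, against 10.25, 9.53 and 8.84 with diluent. All 3 MEKi arrays lay below all 3 diluent arrays, the differences within experiments were −1.54, −1.31 and −1.11, and the log2 fold change was −1.32 (SE 0.097, adjusted p = 0.03 in limma). The call was lost without experiment 2 (adjusted p = 0.131), with each array centred on its median (0.0508), with a random block (0.377) and with no replicate block (1.00), while the log2 fold change stayed between −1.42 and −1.21 under all 11 settings tried. None of the others passed, and the medians of the 10 lists with MEKi lay between 0.014 (histones) and 0.10 (spindle and cytokinesis), where all probe sets had 0.037.

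The members with the largest values in each list, none of which passed except Ccnd1, were these. Of origin and fork proteins, Chaf1b, a chromatin assembly subunit, had a log2 fold change of −0.27 and the primase gene Prim1 one of 0.24. Of recombination genes, Bard1 (the partner of BRCA1) had 0.22 and the Fanconi gene Fanca 0.20. Kinetochore genes were led by Cenpu at 0.32 and Zwilch at 0.23, spindle genes by the motor Kif20b at 0.33 and the kinase Pbk at 0.31, and condensin and cohesin genes by Smc2 at 0.25 and Ncapd3 at 0.20. Anapc13 (0.22) and the ubiquitin-conjugating enzyme Ube2c (0.16) led the genes of the anaphase-promoting complex, H2bc8 (0.27) and H1f5 (−0.24) the histones, and the pocket protein Rbl1 (0.26) and E2f6 (0.25) the DREAM genes. The CDK inhibitor Cdkn2b had 0.39 (adjusted p = 0.188 in limma), and of the p53 targets the death receptor Fas had 0.46 (adjusted p = 0.147) and Ei24 0.23.

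Between experiments, the calls lay mostly in the lists of mitosis, to be read beside the 3.42% and 3.77% of all probe sets lower in experiments 2 and 3. Of 40 spindle and cytokinesis genes 26 were lower in experiment 2 and 31 in experiment 3 than in experiment 1 (limma), with medians of −0.54 and −0.68. Kinetochore genes followed, with 16 and 18 of 33 lower and medians of −0.41 and −0.44, and then condensin and cohesin genes, with 8 and 8 of 21. Of 43 origin and fork genes 8 and 3 were lower, with medians of −0.21 and −0.10, and of 21 recombination genes 4 and 3. The other lists had few calls: 2 and 2 of 16 anaphase-promoting complex genes were lower, both times Ube2c and Fbxo5, an inhibitor of the complex, 2 and 1 of 10 histones (38 were listed), 0 and 1 of 17 DREAM genes, 1 and 3 of 11 CDK inhibitors and D cyclins, and 0 and 1 of 19 p53 targets. Ccnd1 differed from experiment 1 by −0.60 (adjusted p = 0.0287 in limma) in experiment 2 and by −1.19 (adjusted p = 0.00196) in experiment 3. Calls in the opposite direction, which 4.39% and 3.37% of all probe sets had in experiments 2 and 3, were Orc4, an origin recognition subunit, Esco1, which acetylates cohesin, Cdkn2c and the kinase Plk3 in experiment 2, and Esco1, Plk3 and Rb1, the retinoblastoma gene, in experiment 3. Fbxo5 and the genes of the last sentence were named after their values were seen.

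**Figure D5:**
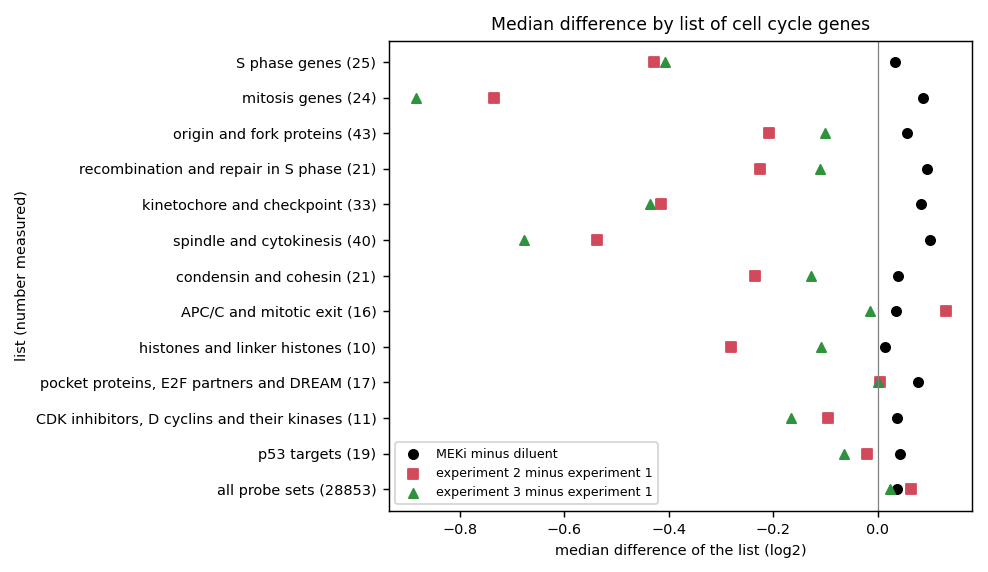
Median difference of each list (x axis, log2) for MEKi minus diluent, experiment 2 minus experiment 1 and experiment 3 minus experiment 1, with the number measured in brackets. The MEKi medians stay between 0.014 and 0.10, while the medians between experiments reach −0.88 for mitosis genes and lie near 0 for DREAM genes and p53 targets.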

How the data were processed

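RNA of 6 MS5 cultures (3 MEKi, 3 diluent) was hybridized to whole-transcript arrays. The authors normalized the raw data with RMA and did quality controls and statistics in Partek, whose versions are not given in the sources used here. The deposited values are log2 intensities of 28853 probe sets, used as they are, with 0 array columns left aside and no build named for them. Of the probe sets 21789 name 1 gene, 1621 several and 5443 have no symbol listed. A gene was represented by its probe set with the highest mean.

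MEKi was compared with diluent, and the experiments with each other, in R 4.3.3 with limma 3.58.1 (lmFit, eBayes; experiment and condition as terms; Benjamini-Hochberg over all probe sets, threshold 0.05). Residual degrees of freedom were 2, to which the prior added 5.17. The labels number 1 MEKi and 1 diluent culture per experiment, and deviations from group means correlated by 0.81, 0.59 and 0.62 within experiments (−0.60 to 0.21 otherwise), so the numbers pair the arrays. The fitting procedure was also run on simulated arrays with known changes, and the outcome is not reported here. The number of arrays limits the precision.

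Genes given with all array values are, in each role, those with the largest log2 fold change, the smallest SE and the widest range of differences. Genes with one direction in all 3 experiments, the 8 with the largest difference between experiments and 2 per related list were also named. Members and lists were chosen with earlier results of these data known. Alternatives were no block, a random block, other normalizations, a filter on dim probe sets, only probe sets naming 1 gene, a trended prior, array weights, each experiment left out, averaging of all probe sets per gene, the methods' analysis of variance, and a fold limit below 1.5. Promoters came from RefSeq (GRCm38.p6), matched by symbol. Python 3.11.15 with matplotlib 3.10.9 made the figures.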

Additional observations from a re-analysis of the deposited data

How the results depend on the processing

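None of the 49 cell division genes was called between MEKi and diluent under any of the 13 alternatives, and 0 to 7 had an unadjusted p under 0.05, with a smallest adjusted p between 0.190 and 1.00 (limma, or the methods' analysis of variance). For that analysis of variance the lack of calls followed from its 1.5-fold limit, which no log2 fold change reached. The 7 genes came without experiment 2, where 3063 of 28853 probe sets had such a p. No replicate block, a random block and leaving out experiment 1 gave 0 genes, beside 907, 2321 and 2277 probe sets. The median of the 49 genes ran from −0.0029 to 0.11, and that of S phase genes from −0.062 (without experiment 3) to 0.062. Over all probe sets the 46 calls were less stable. They became 0 with no replicate block, 0 with a random replicate block, 0 after median centring, 15 after a further quantile normalization, 25 among brighter probe sets and 115 with a trended prior, and 0 to 37 when one experiment was left out (14 without experiment 1, 0 without experiment 2). The cause was not tested, other than that fewer probe sets or arrays entered some. The replicate block changed no call among the 49 genes (0 with it and 0 without). Without it no probe set at all was called, so the 49 genes could give no other count. The same holds for the random block, median centring and leaving out experiment 2. In 11 genes the log2 fold change took the other sign after quantile normalization and in 7 after centring, and in 13, 6 and 8 without experiment 1, 2 and 3. At a limit of 0.32 on the log2 scale 4, 1 and 5 genes differed within experiments 1, 2 and 3, where 8.78%, 10.3% and 8.7% of all probe sets did. The median of mitosis genes in experiment 2 became −0.196 after quantile normalization, against −0.073. Ccnd1 was the called gene of the related lists, and the count there was 0 to 1 when an experiment was left out (0 without experiment 2). Under settings added after seeing the data it was 0 with no replicate block, 0 with a random replicate block and 0 after median centring, and 1 under the other 4. Between experiments, 28 to 37 genes were called for experiment 2 minus 1, 33 to 37 for 3 minus 1 and 0 for 3 minus 2. Of all probe sets entered under these alternatives, 5.69% to 14.5%, 8.02% to 13.3% and 0.215% to 1.26% were called. Of 482 comparisons for single genes 449 kept their side of the threshold and size, 26 became calls, 5 lost their call and 2 values moved. With 3 arrays per condition, a change of 0.32 or more on the log2 scale lay outside the 95% interval of 34 of the 49 genes and of 68.1% of all probe sets.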
